A study of Mus musculus with 12 samples.

Results

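Genes listed as negative regulators or early targets of TGF-β signaling were followed through 12 bulk RNA-seq libraries of sorted aortic smooth muscle cells (SMCs). The genes, *Smad7*, *Pmepa1*, *Ldlrad4*, *Smurf1*, *Smurf2*, *Ski*, *Skil*, and *Tgif1*, were chosen by symbol and are 8 of the 52636 genes in the count table. All 8 were found and all 8 passed the filter on low counts, which left 22320 genes to test. Cells came from mice aged 12 weeks on a C57BL/6J background, of 2 kinds. The study's methods describe compound mutant lines that were bred over generations to a B6 background. GFPiSMC mice carried *Myh11*-CreERT2 and the mT/mG reporter with intact receptors. Tgfbr1/2iSMCKO mice carried the same Cre and reporter together with floxed *Tgfbr1* and *Tgfbr2* alleles. Tamoxifen was given to both kinds for 5 days, so Cre induction and the switch of the reporter from a membrane-bound red protein to GFP are shared by all groups. The labels list 1 mg/d at 4 weeks and 2 mg/d at 11 weeks without tying a schedule to a library, and the study's methods describe the later schedule for its adult mice. Cre was driven by the *Myh11* promoter, which aims it at SMCs, and GFP marks the cells in which it acted. From each of 3 mice per genotype, GFP-positive cells of the ascending aorta with the arch (ascending/arch) and of the descending thoracic aorta were sorted separately, 9208 to 20000 cells per library. The floxed line and the deletion go together in this design and cannot be told apart.

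TGF-β ligands bring together a type II and a type I receptor, and the activated type I receptor phosphorylates Smad2 and Smad3, which enter the nucleus with Smad4 and bind DNA. Many of the genes they switch on early encode brakes on the same pathway. Smad7 occupies the type I receptor and recruits the ubiquitin ligases Smurf1 and Smurf2. Pmepa1 and Ldlrad4 are related membrane proteins that keep Smad2 and Smad3 away from the receptor. Ski, Skil (SnoN), and Tgif1 join Smads on DNA and bring in histone deacetylases. In the aortic wall this pathway is known for its control of matrix and contractile genes of SMCs.

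On GRCm38 *Smad7* (ENSMUSG00000025880.11, chr18:75367529-75395935) and *Ldlrad4* (ENSMUSG00000024544.8, chr18:67933257-68268630) share a chromosome, and each of the others lies on its own. *Pmepa1* (ENSMUSG00000038400.15) lies at chr2:173224458-173276533 and *Skil* (ENSMUSG00000027660.16) at chr3:31095058-31122577. *Ski* (ENSMUSG00000029050.15) lies at chr4:155154075-155222592 and *Smurf1* (ENSMUSG00000038780.14) at chr5:144876495-144965847. *Smurf2* (ENSMUSG00000018363.16) lies at chr11:106820066-106920715 and *Tgif1* (ENSMUSG00000047407.17) at chr17:70844205-70853546. Counts cover all exons of each gene. The *Ldlrad4* gene overlaps the oppositely transcribed *Fam210a* over 8444 bases, and since the sources do not state whether counting used strand, part of the *Ldlrad4* count may belong to that neighbor.

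RefSeq promoter windows (GRCm38.p6, 250 bases before to 50 bases after a transcript start) were at hand for 4 of the genes. These were *Ski*, *Smurf1*, *Smurf2*, and *Tgif1*, the last with 5 starts, which makes 8 windows. They were searched on both strands for CAGACA, a core element bound by Smad3 and Smad4. The element occurred in 4 of the 8 windows, against 21.0% of 32851 promoter windows in the table. The stretches that hold it are shown here in the direction of transcription, with the element in capitals; TGTCTG is the same element on the opposite strand.

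*Tgif1*, chr17:70853716-70853745, minus strand, 201 bases before a start: ttttccgccgcgCAGACAgcggatagaaaa

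*Tgif1*, chr17:70851777-70851806, minus strand, 60 bases before another start: ccacggtgactaTGTCTGcctccccccacc

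*Smurf1*, chr5:144966006-144966035, minus strand, 193 bases before the start: tggccacggtggTGTCTGtttcaaggctcc

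*Smurf2*, chr11:106920671-106920700, minus strand, at base 28 after the start: accgggttctctCAGACAagagggcgggcg

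The *Ski* window held none. The longer Smad element GTCTAGAC (0.213% of all windows) and the AP-1 element TGACTCA (5.20%) were in none of the 8. A match is a description of the letters and not of binding.

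Libraries held 25007747 to 31392396 counts in GFPiSMC and 20467027 to 30354994 in Tgfbr1/2iSMCKO. The deleted receptors gave no clear check of the labels. *Tgfbr1* stood at 196 to 292 CPM in GFPiSMC and 198 to 295 CPM in Tgfbr1/2iSMCKO. Its log2 fold change of 0.10 did not pass (adjusted p = 0.79 by edgeR, SE 0.12). *Tgfbr2* stood at 88.9 to 128 and 68.2 to 102 CPM, a log2 fold change of −0.26 (adjusted p = 0.233 by edgeR, SE 0.11). Within each segment all knockout libraries lay below the controls for *Tgfbr2*, as for 10.1% of genes in ascending/arch and 7.75% in descending cells. For *Tgfbr1* they overlapped in ascending/arch and lay above the controls in descending cells. The values of both receptors are sums over all exons, which do not resolve the loss of a floxed part. Smooth muscle markers (*Myh11*, *Acta2*, *Tagln*, *Cnn1*, *Smtn*, and *Myocd*) summed to 39408 to 46872 CPM in GFPiSMC and 32911 to 42328 CPM in Tgfbr1/2iSMCKO, and 0 of 6 passed the edgeR test, with 2 at an unadjusted p under 0.05 and 0 called by DESeq2. Endothelial markers summed to 66.9 to 99.9 and 53.3 to 102 CPM, fibroblast markers to 22.5 to 141 and 11.8 to 218 CPM, and macrophage and leukocyte markers to 5.22 to 11.4 and 6.38 to 14.2 CPM. No listed marker was at 0 in all 12 libraries. In bulk RNA, fewer cells of a type and less RNA per cell cannot be told apart.

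Of the 8 genes, *Pmepa1* alone passed the edgeR test between genotypes. Over all 12 libraries, 1 of the 8 genes fell and 0 rose at an adjusted p under 0.05 by edgeR's quasi-likelihood test with Benjamini-Hochberg adjustment, while 3.23% of all genes tested fell (721) and 1.8% rose (402). With scaling by library size alone, 505 of all genes fell and 699 rose. Unadjusted, 5 of the 8 were under 0.05, against 16.1% of all genes. The median log2 fold change of the 8 was −0.66, beside 0.04 over all genes tested. Immediate early genes, which respond to cell handling, had a median of −0.67 over 10 genes, and their part in the values of the 8 was not tested. DESeq2 called 4 lower (*Pmepa1*, *Smad7*, *Ldlrad4*, and *Smurf2*) and 1 higher (*Tgif1*), where it called 5.1% and 3.99% of all genes. In *Pmepa1*, *Smurf2*, and *Ski*, 3 of the 8, all 6 Tgfbr1/2iSMCKO libraries lay below all 6 GFPiSMC libraries, as in 2.89% of all genes tested. The fit treats 12 libraries as separate samples although each mouse gave 2, and p-values measure the spread between these samples.

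**Figure D1:**
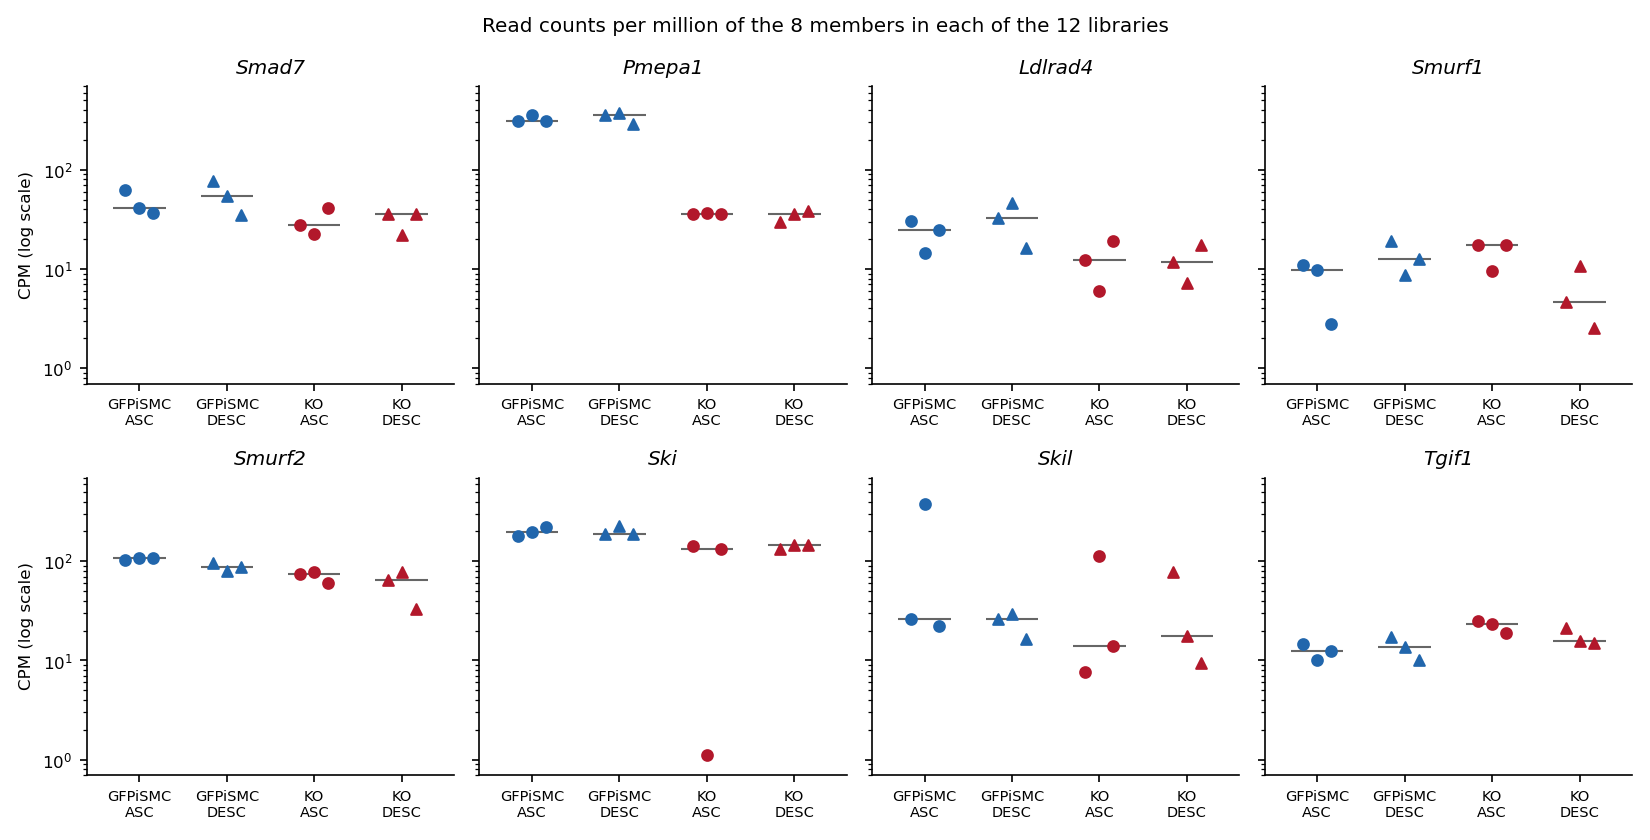
CPM (log axis) of each of the 8 genes in each library, by genotype (blue GFPiSMC, red Tgfbr1/2iSMCKO, labelled KO) and segment (circles ascending/arch, ASC; triangles descending, DESC), with points in the order of replicates 1 to 3 and a gray line at the median of 3. *Pmepa1* shows 2 levels with no overlap, 289 CPM and above against 38.3 CPM and below, *Ski* has 1 library at 1.12 CPM, and *Skil* has 1 GFPiSMC library at 381 CPM.

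Among the inhibitors that act at the receptor, *Pmepa1* gave the clearest difference. In GFPiSMC it stood at 309.6, 357, and 309.7 CPM in the ascending/arch libraries of mice 1, 2, and 3 and at 356, 374, and 289 CPM in the descending ones. In Tgfbr1/2iSMCKO it stood at 36.2, 36.7, and 35.8 CPM in ascending/arch and at 29.6, 35.5, and 38.3 CPM in descending libraries. The genotypes were far apart and the libraries within each were close, with a coefficient of variation of 10.3% and 8.40%. *Pmepa1* fell 9.40-fold, a log2 fold change of −3.23 (SE 0.11, 95% confidence interval −3.47 to −2.99, adjusted p = 1.5e-09 by edgeR), which placed it at rank 2 of 22320 genes by p. With the counts of each mouse summed, 3 mice against 3, the log2 fold change was −3.22 (SE 0.15, adjusted p = 5.83e-05 by edgeR).

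*Smad7*, the inhibitory Smad, spread more. The GFPiSMC libraries held 63.2, 40.9, and 36.4 CPM in ascending/arch and 77.5, 54.2, and 34.9 CPM in descending cells. The Tgfbr1/2iSMCKO libraries held 27.7, 22.6, and 41.4 CPM in ascending/arch and 35.6, 22.2, and 35.5 CPM in descending cells. Of the 6 knockout libraries, 3 lay below every control library and the others overlapped them. The log2 fold change was −0.73 (SE 0.23, interval −1.23 to −0.22) and missed the threshold at an adjusted p of 0.105 by edgeR. *Smad7* also missed it with counts summed per mouse (adjusted p = 0.395 by edgeR). DESeq2 called it (adjusted p = 0.0361), as did edgeR where only genes averaging 50 counts or more were tested (0.0499).

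*Ldlrad4*, the relative of *Pmepa1*, resembled *Smad7* in its scatter. Control libraries held 30.5, 14.3, and 24.5 CPM in ascending/arch and 33.0, 46.1, and 16.3 CPM in descending cells. Knockout libraries held 12.2, 6.07, and 19.3 CPM in ascending/arch and 11.9, 7.30, and 17.3 CPM in descending cells. Of the 6 knockout libraries, 4 were below all controls, and mouse 3 of that genotype was the highest in both segments. The log2 fold change was −1.13 (SE 0.34, interval −1.87 to −0.40, adjusted p = 0.0815 by edgeR). *Ldlrad4* missed the threshold with counts summed per mouse too (adjusted p = 0.255 by edgeR). The gene passed without knockout mouse 3 (log2 fold change −1.54, adjusted p = 0.0289), without the ascending/arch library of that mouse alone (−1.37, adjusted p = 0.0382), by DESeq2 (adjusted p = 0.0149), and by edgeR where only genes averaging 50 counts or more were tested (0.0413).

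The HECT ubiquitin ligases, which Smad7 guides to the receptor, did not pass the edgeR test. *Smurf2* stood at 104, 108, and 109 CPM in ascending/arch and 96.0, 79.3, and 88.1 CPM in descending control libraries. In the knockout it stood at 74.1, 77.7, and 61.0 CPM in ascending/arch and at 65.0, 77.7, and 33.2 CPM in descending libraries. The highest knockout library, at 77.7 CPM, was just under the lowest control at 79.3 CPM, and with counts scaled by library size alone the genotypes overlapped. The log2 fold change was −0.59 (SE 0.17, interval −0.96 to −0.22, adjusted p = 0.0718 by edgeR). *Smurf2* also missed the threshold with counts summed per mouse (adjusted p = 0.234 by edgeR). It passed without knockout mouse 2 (−0.75, adjusted p = 0.0362), without the descending library of that mouse alone (−0.70, adjusted p = 0.0266), and by DESeq2 (adjusted p = 0.0267).

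*Smurf1* showed no common direction. Control libraries held 11.0, 9.82, and 2.77 CPM in ascending/arch and 19.4, 8.62, and 12.7 CPM in descending cells. Knockout libraries held 17.3, 9.46, and 17.4 CPM in ascending/arch and 4.64, 10.6, and 2.53 CPM in descending cells. The ranges coincided over the 12 libraries, with a log2 fold change of −0.14 (SE 0.51, interval −1.24 to 0.96, adjusted p = 0.947 by edgeR). The interval holds both a halving and a near doubling.

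Of the corepressors, *Ski* depended on 1 library. Controls held 178, 197, and 222 CPM in ascending/arch and 186, 227, and 189 CPM in descending cells. Knockout libraries held 142, 1.12, and 133 CPM in ascending/arch and 134, 147, and 145 CPM in descending cells. The value of 1.12 CPM rests on 23 counts in the ascending/arch library of knockout mouse 2, where the other 11 libraries had 3239 to 6478. With that library the log2 fold change was −0.81 (SE 0.61, interval −2.13 to 0.51, adjusted p = 0.628 by edgeR). *Ski* also missed the threshold with counts summed per mouse and all libraries kept (−0.73, SE 0.22, adjusted p = 0.2 by edgeR). Without the library at 1.12 CPM, *Ski* passed at a smaller and more precise difference of −0.51 (SE 0.10, adjusted p = 0.0151 by edgeR). Without both libraries of that mouse it passed at −0.53 (SE 0.11, adjusted p = 0.0179 by edgeR). Such a drop was rare in the data. Among 3697 genes with a median of at least 50 CPM, 16 pairs of gene and library lay more than 10-fold under the lowest other library, 5 of them in that same library (*Hip1*, *Gid4*, *Paip1*, *Ski*, and *Antxr1*). These genes were named after their values were seen.

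*Skil*, itself induced by TGF-β in many cells, was carried by single libraries. Controls held 26.5, 381, and 22.4 CPM in ascending/arch and 26.1, 29.3, and 16.6 CPM in descending cells. Knockout libraries held 7.72, 114, and 14.1 CPM in ascending/arch and 77.1, 17.6, and 9.38 CPM in descending cells. Mouse 2 of each genotype was high in ascending/arch and knockout mouse 1 in descending cells. In counts these 3 libraries had 11095, 2357, and 1863, and the other 9 had 225 to 837. The medians were 26.3 CPM in controls and 15.9 CPM in knockouts. The log2 fold change of −0.57 (SE 0.90, interval −2.52 to 1.38, adjusted p = 0.862 by edgeR) turned to 0.69 (SE 0.67, adjusted p = 0.791) without the control library at 381 CPM, and DESeq2 gave no adjusted p.

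*Tgif1*, a homeodomain corepressor, was the one gene of the 8 with a positive value. Controls held 14.6, 10.2, and 12.6 CPM in ascending/arch and 17.1, 13.7, and 10.2 CPM in descending cells. Knockout libraries held 24.9, 23.1, and 19.0 CPM in ascending/arch and 21.5, 15.9, and 14.9 CPM in descending cells. All 3 ascending/arch knockout libraries were above the 3 controls of that segment, as in 8.87% of all genes, and above those of the descending segment, while the descending knockout libraries overlapped the controls. The log2 fold change was 0.59 (SE 0.19, interval 0.18 to 1.01, adjusted p = 0.108 by edgeR). *Tgif1* also missed the threshold with counts summed per mouse (adjusted p = 0.316 by edgeR). DESeq2 called it (adjusted p = 0.0194), and so did edgeR with counts scaled by library size alone (0.72, adjusted p = 0.041), a scaling that moved the median of all genes from 0.04 to 0.16.

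**Figure D2:**
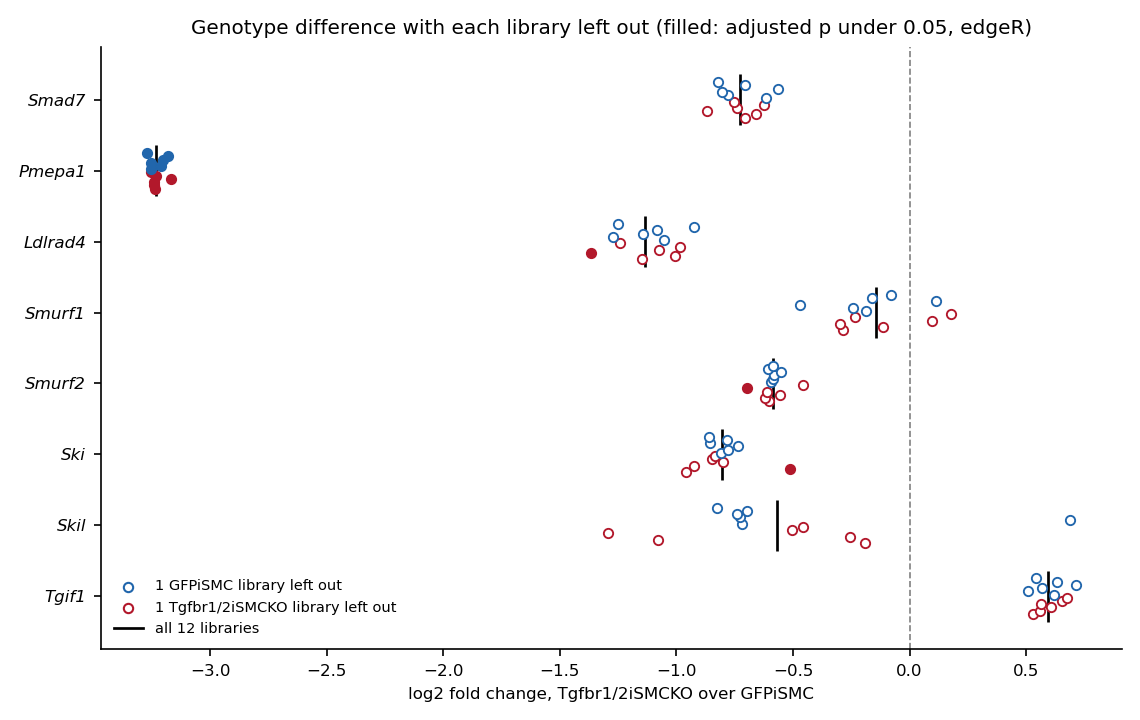
Log2 fold change (horizontal axis) of each gene over the libraries that remain when 1 of the 12 is left out, blue for a GFPiSMC and red for a Tgfbr1/2iSMCKO library, filled where the adjusted p by edgeR was under 0.05, with a black line for all 12. *Pmepa1* stayed between −3.27 and −3.17, *Skil* ran from −1.29 to 0.69, and *Ski* moved to −0.51 without the ascending/arch library of knockout mouse 2.

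Within the segments the picture was the same for *Pmepa1*. Its log2 fold change was −3.17 (SE 0.16, interval −3.52 to −2.82, adjusted p = 7.13e-07) in ascending/arch and −3.30 (SE 0.16, interval −3.65 to −2.95, adjusted p = 6.35e-07) in descending SMCs by edgeR. It was the 1 of 8 genes that fell in each segment, where 1.01% and 1.21% of all genes fell, and 0 of 8 rose, where 0.403% and 0.52% rose. DESeq2 called the same gene lower in both (2.38% and 2.5% of all genes), 1 of the 8 higher in ascending/arch (1.69%), and 0 in descending SMCs (1.62%). *Pmepa1*, *Smurf2*, and *Ski* had all knockout libraries below the controls of their segment in both segments, as 10.1% of genes had in ascending/arch and 7.75% in descending SMCs. For the others with a shared sign, the ascending/arch and descending values stood close together for *Smurf2*, at −0.59 (SE 0.25) and −0.58 (SE 0.25). *Ski* gave −1.11 (SE 0.89) with the library at 1.12 CPM and −0.50 (SE 0.89) in descending SMCs. *Smad7* gave −0.62 (SE 0.34) and −0.84 (SE 0.34), and *Ldlrad4* −0.88 (SE 0.49) and −1.39 (SE 0.49). *Tgif1* gave 0.84 (SE 0.27, adjusted p = 0.194 by edgeR) in ascending/arch, where DESeq2 called it (adjusted p = 0.0287), and 0.35 (SE 0.26) in descending SMCs.

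No gene of the 8 passed the test for a difference in genotype effect between segments. By edgeR 0 of 8 passed in either direction, 1 had an unadjusted p under 0.05, and DESeq2 called 0 of 8. Over all genes edgeR called 0% in each direction, 2.95% were under 0.05 unadjusted, and DESeq2 called 0.00448% lower and 0.0314% higher. The 1 gene was *Smurf1*, at 0.90 (SE 0.57) in ascending/arch and −1.19 (SE 0.58) in descending SMCs, a difference of −2.10 (SE 0.81, interval −3.87 to −0.32, unadjusted p = 0.0241, adjusted p = 1 by edgeR). For *Pmepa1* the difference was −0.13 with an interval of −0.59 to 0.33.

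**Figure D3:**
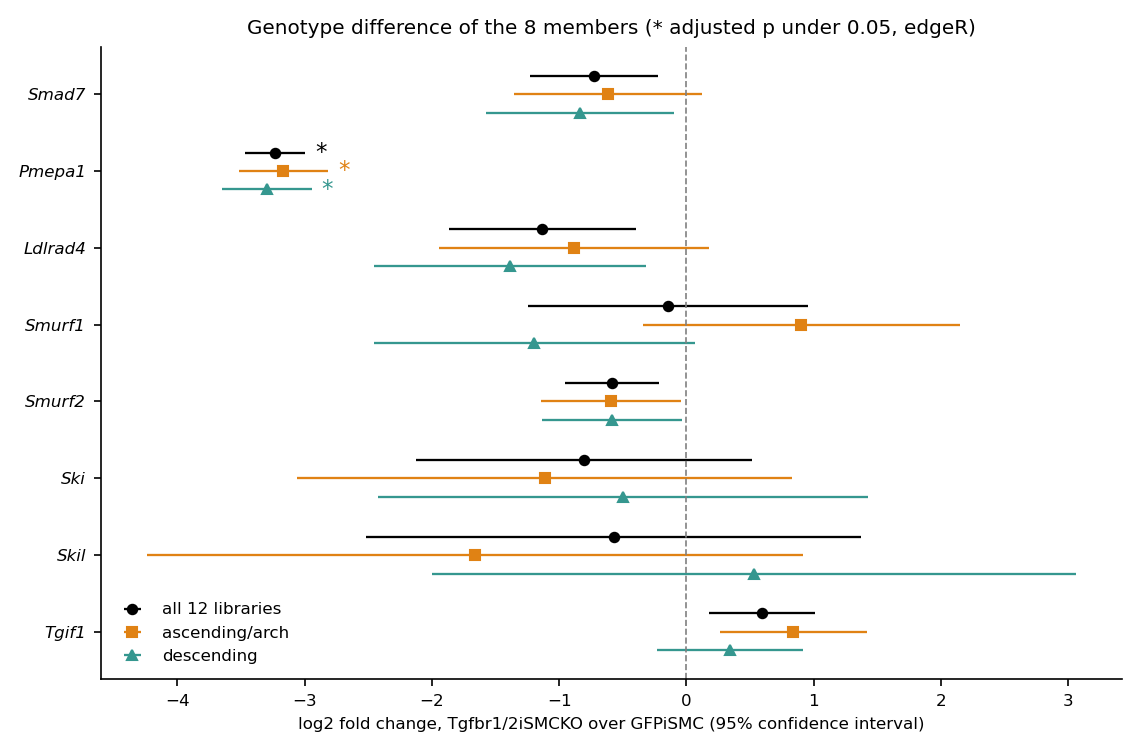
Log2 fold change of Tgfbr1/2iSMCKO over GFPiSMC (horizontal axis) with its 95% confidence interval for each gene over all 12 libraries (black), in ascending/arch (orange), and in descending SMCs (green), with an asterisk where the adjusted p by edgeR was under 0.05. The 3 *Pmepa1* intervals lie between −3.65 and −2.82, and the intervals of *Smurf1*, *Ski*, and *Skil* cross 0 in all 3 comparisons.

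Between segments of the same genotype, 0 of 8 genes passed in GFPiSMC and 0 of 8 in Tgfbr1/2iSMCKO by edgeR or DESeq2. Of all genes, 0.309% were lower and 0.0672% higher in descending than in ascending/arch GFPiSMC by edgeR, and 0.0941% lower and 0.0179% higher in Tgfbr1/2iSMCKO. DESeq2 called 0.918% lower and 0.354% higher in GFPiSMC, and 0.52% lower and 0.215% higher in Tgfbr1/2iSMCKO. Unadjusted, 0 of the 8 were under 0.05 in GFPiSMC (5.98% of all genes) and 1 in Tgfbr1/2iSMCKO (3.68%). This was *Smurf1*, lower in descending cells at −1.31 (SE 0.58, unadjusted p = 0.0425, adjusted p = 1 by edgeR). *Pmepa1* differed by 0.06 (interval −0.26 to 0.38) in GFPiSMC and by −0.07 (interval −0.40 to 0.25) in Tgfbr1/2iSMCKO.

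Levels were compared between genes per length, as FPKM, the count scaled by exonic length and the TMM-adjusted library total. In GFPiSMC *Pmepa1* was the highest at 67.7 ± 6.94 FPKM (SD, n = 6), followed by *Ski* at 36.0 ± 3.62 and *Smurf2* at 15.8 ± 1.93 FPKM, and the ranges of these 3 did not overlap. Below them came *Smad7* at 11.3 ± 3.75, *Skil* at 8.63 ± 15.03, *Ldlrad4* at 5.11 ± 2.19, *Tgif1* at 2.32 ± 0.479, and *Smurf1* at 1.69 ± 0.857 FPKM, each with a range that overlapped the next, and the range of *Smad7* overlapped that of *Smurf2*. The mean of *Skil* holds 1 library at 39.3 FPKM, and its other libraries stood at 1.72 to 3.03 FPKM, against 2.67 to 8.59 FPKM for *Ldlrad4*. In Tgfbr1/2iSMCKO the order was *Ski* at 21.0 ± 10.3, *Smurf2* at 10.5 ± 2.75, *Pmepa1* at 7.20 ± 0.605, *Smad7* at 6.82 ± 1.73, *Skil* at 4.13 ± 4.63, *Tgif1* at 3.53 ± 0.710, *Ldlrad4* at 2.30 ± 0.978, and *Smurf1* at 1.63 ± 0.979 FPKM (SD, n = 6). All neighbors in that order overlapped in range. *Ski* overlapped *Smurf2* only through the ascending/arch library of knockout mouse 2, at 0.201 FPKM. Its other knockout libraries stood at 23.9 to 26.5 FPKM, against 5.39 to 12.6 FPKM for *Smurf2*. The knockout mean of *Skil* holds libraries at 11.8 and 7.96 FPKM. Its other knockout libraries stood at 0.797 to 1.82 FPKM, against 2.64 to 4.42 FPKM for *Tgif1*. *Pmepa1*, the most abundant of the 8 in controls, overlapped *Smad7* in range in the knockout.

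**Figure D4:**
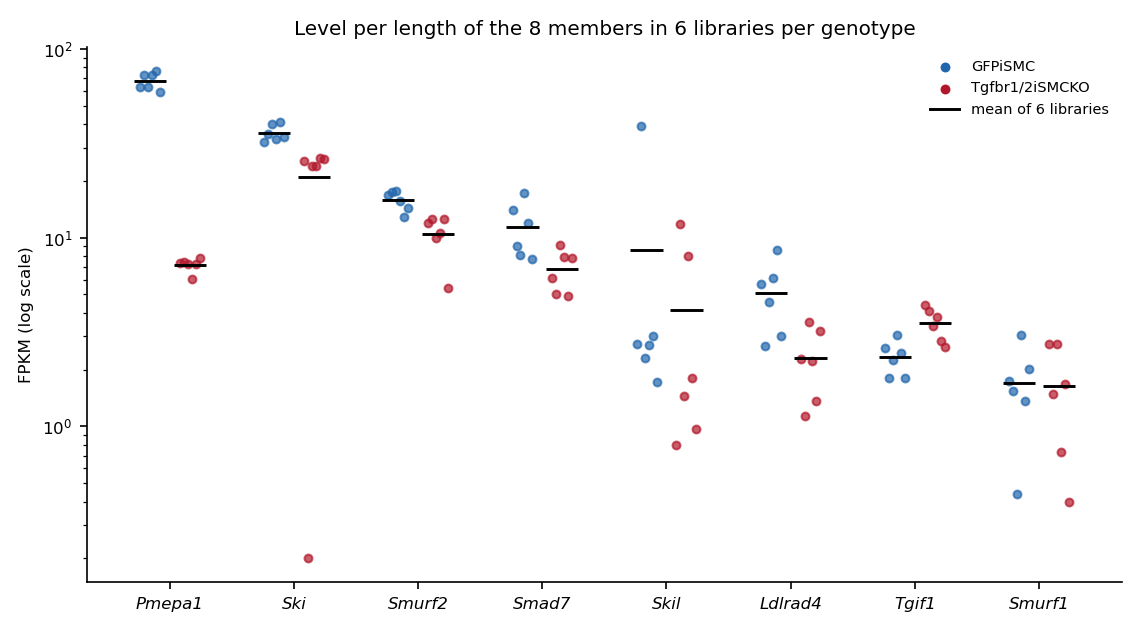
FPKM (log axis) of the 8 genes in 6 GFPiSMC (blue) and 6 Tgfbr1/2iSMCKO (red) libraries, in the order of the GFPiSMC means, with black lines at the means of 6. *Pmepa1* went from a mean of 67.7 to 7.20 FPKM, while *Smurf1* lay at 1.69 and 1.63 FPKM.

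Other genes of the pathway were counted from lists of receptors, regulators, and targets. Of all genes tested, 3.23% fell and 1.8% rose by edgeR, and 5.1% fell and 3.99% rose by DESeq2. Among 10 receptors and Smads, 0 fell and 1 rose, *Tgfbr3* (betaglycan), which presents ligand to the type II receptor (log2 fold change 0.52, SE 0.12, adjusted p = 0.0226 by edgeR). It missed the threshold with counts summed per mouse (adjusted p = 0.100) and without any 1 mouse other than knockout mouse 2, at adjusted p from 0.0582 to 0.108. DESeq2 called 0 of the 10 lower and 2 higher. The median of that list was −0.02, and the extremes that did not pass by edgeR were *Acvr2b* at −0.67 and *Smad3* at 0.66. Among 16 other feedback regulators and inhibitors, of which 14 were tested, 1 fell and 0 rose by edgeR. This was *Wwp2*, a ubiquitin ligase of the same family as the Smurfs, with 388 to 757 CPM in GFPiSMC and 97.8 to 309 CPM in Tgfbr1/2iSMCKO (−1.43, SE 0.28, adjusted p = 0.0075 by edgeR, and 0.0932 with counts summed per mouse). Without control mouse 1 or knockout mouse 1 its adjusted p was 0.0661 and 0.0744. DESeq2 called 1 of the 14 lower and 0 higher. The median was −0.07, and the highest value was 0.29 for *Peli1*, which did not pass.

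The proteins are themselves regulated. Of 10 ubiquitin ligases, deubiquitinases, and scaffolds that act on Smad7, Ski, or the Smurfs, 0 passed by edgeR. Unadjusted, 2 of the 10 were under 0.05 by edgeR, against 16.1% of all genes. DESeq2 called 0 lower and 1 higher, where it called 5.1% and 3.99% of all genes. The widest value was that of the deubiquitinase *Usp11* at 1.14 (SE 0.32, adjusted p = 0.0577 by edgeR). Of 8 corepressor partners, such as the histone deacetylases and the nuclear corepressor *Ncor1*, 0 passed by edgeR and DESeq2 called 0. Unadjusted, 2 were under 0.05 by edgeR (16.1% of all genes), with values from −0.43 for *Hdac2* to 0.89 for *Hipk2*. The medians of both lists were 0.09 and 0.05, against 0.04 for all genes.

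Direct targets outside the feedback loop came next. Of 19 listed, 6 fell and 0 rose by edgeR (3.23% and 1.8% of all genes), with a median of −0.78, and DESeq2 called 7 lower and 1 higher (5.1% and 3.99% of all genes). *Ccn2*, a matricellular growth factor, fell from 5616 ± 1145 to 106 ± 74.0 CPM (SD, n = 6), or by 5.73 on the log2 scale (adjusted p = 7.8e-06 by edgeR, SE 0.48). *Nox4*, an NADPH oxidase, fell from 699 ± 84.3 to 156 ± 17.1 CPM (−2.17, SE 0.11, adjusted p = 7.33e-08 by edgeR). The others that fell were the cell cycle inhibitors *Cdkn2b* (−1.38) and *Cdkn1a* (−1.26), the integrin subunit *Itgb5* (−1.07), and the ligand *Tgfb2* (−0.79). With counts summed per mouse, *Cdkn2b* and *Itgb5* missed the threshold (adjusted p = 0.0635 and 0.0538 by edgeR), and *Itgb5* also without control mouse 1 (0.0563) or knockout mouse 1 (0.0568). *Pmepa1* lay between *Ccn2* and *Nox4* in size, and its SE of 0.11 equaled that of *Nox4*. *Tsc22d1*, the highest value of the list that did not pass, stood at 0.90 (SE 0.27, adjusted p = 0.0775 by edgeR). The lists were chosen with results of these data known.

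**Figure D5:**
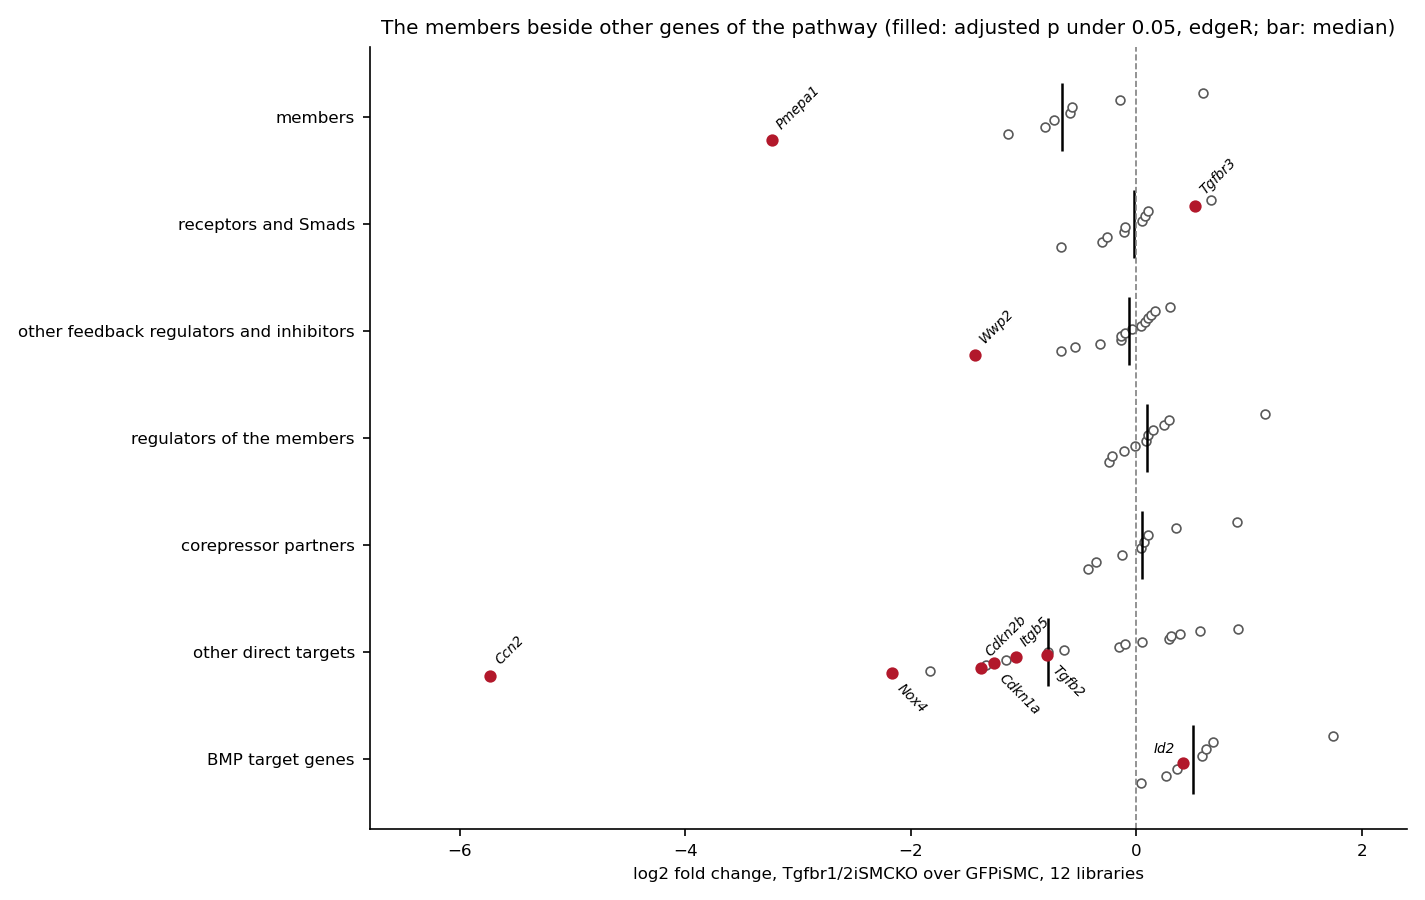
Log2 fold change over 12 libraries (horizontal axis) of the 8 genes and of 6 lists of other pathway genes, 1 point per gene tested, filled and named where the adjusted p by edgeR was under 0.05, with a black bar at the median of each list. The 8 genes have 1 filled point, *Pmepa1* at −3.23, and the other direct targets have 6, from −5.73 for *Ccn2* to −0.79 for *Tgfb2*.

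The genes most like each of the 8 were taken from the 11152 genes that averaged 100 counts or more. Likeness was Pearson's r of log2(CPM + 1) over 12 libraries. All genes of a library share its depth and handling, and depth differed between libraries (20467027 to 31392396 counts). *Smad7* and *Ldlrad4* were each other's closest match within the 8, at r = 0.89. Closest to *Smad7* overall were *Nomo1* (0.95), *Fzd2* (0.95), and *Foxs1* (0.94), and closest to *Ldlrad4* were *Cspg4* (0.95), *Rhbdf1* (0.95), and *Col6a2* (0.94). *Smurf2* was most like *Slamf9* (0.95), *Fam76a* (0.94), and *Btbd1* (0.94), and *Smurf1* most like *Rnf213* (0.85), *Gm28551* (0.80), and *Midn* (0.78). *Tgif1* was most like *Ndufa9* (0.90), *Wrb* (0.90), and *Hmgb1* (0.90), and *Skil* like *Afdn* (0.90), *Ndufaf1* (0.88), and *Prdm4* (0.85). For *Ski* the matches *Antxr1* (0.98), *Hip1* (0.96), and *Gid4* (0.91) were genes with a drop in the same library.

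For *Pmepa1* the closest genes were *Gm14326* (0.99), *Gm15270* (0.99), and *Pcna-ps2* (0.99), each with low knockout libraries. *Gm14326* had 151 to 289 counts in GFPiSMC libraries and 0 in all Tgfbr1/2iSMCKO libraries, and lies on the same chromosome as *Pmepa1*, 4.66 Mb away. The neighborhood of each of the 8 genes was therefore counted, after these values were seen. Within 1 Mb of *Pmepa1*, 1 of 26 genes tested fell, *Aurka*, and 0 rose. Within 5 Mb, 15 of 75 fell and 0 rose, beside 3.23% of all genes. Of the 15, 13 are *Gm* and *Zfp* genes at chr2:176798612-178034022, 3.52 to 4.75 Mb from *Pmepa1*, with 9 to 385 counts in GFPiSMC libraries. In Tgfbr1/2iSMCKO libraries 7 of the 13 were at 0 throughout, and no library held more than 23 counts of any. Their numbers are uncertain because close copies of a gene family can share reads. Within 5 Mb of each of the other 7 genes, 0 to 8 genes fell, the most for *Smurf1* at 8 of 129, and 0 to 2 rose. Whether the stretch on chromosome 2 has a part in the *Pmepa1* level was not tested, and the mouse line cannot be told apart from the deletion.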

How the data were processed

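SMCs from ascending/arch and descending segments of 3 GFPiSMC and 3 Tgfbr1/2iSMCKO mice gave 12 libraries (NEBNext Single Cell/Low Input kit). Per the study's methods, the authors trimmed reads with Trim Galore, aligned them with HISAT2 to GRCm38, and quantified GENCODE M15 genes with StringTie. The deposited values are whole-number counts without normalization. The step from coverage to counts and the strand setting are not given in the sources used here. Counts of 2 (32279) outnumbered counts of 1 (22574). Symbols came from GENCODE M21 for 52489 of 52636 genes.

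Counts were filtered with filterByExpr, scaled by TMM, and tested with edgeR 4.0.16 in R 4.3.3 by a quasi-likelihood fit of segment and genotype over 12 libraries, with Benjamini-Hochberg adjustment over 22320 genes. Effects within segments, their difference, and segment differences came from a fit of 4 group means. SEs were derived from the log2 fold change and the F statistic. The biological coefficient of variation was 0.442. FPKM used TMM-scaled counts and exonic lengths.

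Libraries that share genotype and number in the labels were taken as 1 mouse, which pairs the segments. Deviations from the group means correlated within a mouse at r from −0.25 to 0.67 over 9356 genes. The labels name no batch. Alternatives were DESeq2 1.42.0, limma-voom (limma 3.58.1) with the mouse as a random effect, summed counts per mouse, RLE or library size scaling, other filters, blocks, each segment alone, a test against a 2-fold change, and mice left out in turn. Each library left out in turn was added after seeing the data. Scripts were tested on simulated data.

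The members, the 13 lists of pathway genes and markers, and the tests were chosen with earlier results of these data known, and some listed genes are not reported here. Named were all members, list genes that passed, the extremes of lists, and the deleted receptors.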

Additional observations from a re-analysis of the deposited data

Results flagged for a closer look

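For 3 genes a value stood apart within the 6 libraries of a genotype by Dixon's ratio, out of 38 sets of values examined, where chance marks about 1 set in 20. *Ski* in the ascending/arch library of Tgfbr1/2iSMCKO mouse 2 was at 1.12 CPM, below all others of its genotype (ratio 0.90). *Skil* in the ascending/arch library of GFPiSMC mouse 2 was at 381 CPM, above all others (ratio 0.97). *Pmepa1* in the descending library of Tgfbr1/2iSMCKO mouse 1 was at 29.6 CPM, below a narrow set that ended at 38.3 CPM (ratio 0.68).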

How the results depend on the processing

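*Pmepa1* stayed past the threshold with the same direction between genotypes under each alternative run, in 12 libraries and within segments, at −3.30 to −3.16 in 12 libraries, −3.21 to −3.09 for the ascending/arch segment, and −3.41 to −3.20 for the descending segment with 1 mouse left out. DESeq2 called 4 of the 8 genes lower and 1 higher, and 1 higher in ascending/arch; genes averaging 50 counts or more gave 3 lower, and library size scaling 1 higher. With 1 mouse or 1 library left out, 1 to 3 were lower. Over all genes, 721 were lower and 402 higher as reported, 1139 and 891 by DESeq2, 304 and 147 with counts summed per mouse, and 99 and 38 in a test against a 2-fold change, while library size scaling gave 505 lower and 699 higher. Leaving out 1 mouse or library gave 410 to 798 lower and 196 to 488 higher. Of the 61 other pathway genes tested, 7 fell and 1 rose as reported, beside 3.23% and 1.8% of all genes. Counts summed per mouse gave 4 lower and 0 higher, beside 304 and 147 of 24275 genes. DESeq2 gave 8 lower and 4 higher, beside 5.1% and 3.99% of all genes. Library size scaling gave 7 lower and 4 higher, beside 505 and 699 of 22320 genes.

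Some values changed sign with 1 mouse or library left out. Between genotypes in 12 libraries *Smurf1* ran from −0.47 to 0.18, *Skil* from −1.29 to 0.79, and *Tgfbr1* from −0.0021 to 0.20. *Skil* ran from −3.70 to 0.89 in ascending/arch and from −0.84 to 0.97 in descending SMCs. The difference between segments ran from −0.51 to 0.085 for *Smad7*, −0.87 to 0.11 for *Ldlrad4*, −0.25 to 0.29 for *Smurf2*, and −0.37 to 4.55 for *Skil*. Between segments of GFPiSMC *Ldlrad4* ran from −0.16 to 0.82 and *Ski* from −0.092 to 0.15. In Tgfbr1/2iSMCKO *Smad7* ran from −0.15 to 0.19, *Pmepa1* from −0.17 to 0.024, *Ldlrad4* from −0.11 to 0.058, and *Skil* from −2.25 to 1.98.

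Replicate numbers across genotypes share only a number, with deviations correlated at −0.52 to 0.22. With that replicate block *Pmepa1* stood at −3.23 (adjusted p = 6.56e-08 by edgeR), no call among the 8 changed, and 656 genes were lower and 338 higher. With the mouse as a block the difference between segments for *Smurf2* was −0.064 and the *Ldlrad4* segment value in Tgfbr1/2iSMCKO 0.021, and library size scaling gave −0.024 for *Ski* in GFPiSMC. None of these passed. The cause of these changes was not tested. *Smurf1* had 67 to 540 counts and *Tgif1* 254 to 725 counts in a library.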

Other observations

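BMP signaling runs beside the TGF-β pathway through Smad1, Smad5, and Smad9 and shares Smad4, and its target genes were counted over the same libraries. Summed over 8 listed targets, the level was 2058 to 3007 CPM in GFPiSMC and 3073 to 3666 CPM in Tgfbr1/2iSMCKO. By edgeR 1 of 8 rose and 0 fell, where 1.8% and 3.23% of all genes did, with a median log2 fold change of 0.50 beside 0.04 over all genes. The 1 was *Id2*, an inhibitor of helix-loop-helix factors (0.42, SE 0.11, adjusted p = 0.0373 by edgeR, and 0.14 with counts summed per mouse), which missed the threshold without any 1 mouse other than knockout mouse 3, at adjusted p from 0.0819 to 0.188. The other values ran from 0.04 (SE 0.14) for *Smad6*, an inhibitory Smad, to 1.74 for *Hamp*, which averaged under 1 CPM. DESeq2 called 2 higher.

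Immediate early genes, which respond to cell handling, summed to 614 to 2024 CPM in GFPiSMC and 428 to 2159 CPM in Tgfbr1/2iSMCKO. Of 10 listed, 0 passed by edgeR, 4 had an unadjusted p under 0.05, and DESeq2 called 3 lower. The median log2 fold change was −0.67, from −2.06 for *Fosb* to 0.64 for *Ier2*, beside −0.66 for the 8 feedback genes. Among markers of other cells, *Cdh5* of endothelium rose by edgeR (2.97, SE 0.70, adjusted p = 0.025) from 0.17 to 1.26 CPM, and the 4 others of that list did not pass by edgeR, while DESeq2 called 2 of the 5 higher, *Cdh5* and *Vwf*. The median of the list was 0.71. By edgeR 0 of 5 fibroblast markers tested passed with 0 unadjusted, 0 of 4 macrophage and leukocyte markers with 1 unadjusted, and 0 of 1 each for adipocytes and Schwann cells with 0 unadjusted, and DESeq2 called 0 in these 4 lists.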
